A study of Mus musculus with 6 samples.

Results

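The genes described here are 9 components of cytosolic nucleic acid sensing: Cgas, Tmem173, Ifih1, Ddx58, Dhx58, Mavs, Tbk1, Trex1 and Samhd1. They were chosen by gene name in a table of mRNA abundance in mouse thymus, and all 9 were found among its 21954 genes, with 1 gene identifier each. Polyadenylated RNA came from thymuses of wild-type C57BL mice, labelled 5 weeks old, and the labels name no genetic modification. The control group of 3 received no radiation, and the irradiated group of 3 received X-rays at 6 Gy with tissue taken after 24 h. The labels count 3 mice per group without naming the mouse behind each library. The p-values therefore measure the spread between these samples, which may be partly technical. Abundance is in FPKM, the fragment count scaled to transcript length and library depth.

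Cells carry sensors for DNA and RNA that lie where these molecules should be scarce. Cgas encodes the enzyme that binds double-stranded DNA in the cytosol and makes the messenger cGAMP, which activates STING, the membrane protein encoded by Tmem173. Ddx58 (RIG-I) and Ifih1 (MDA5) encode helicases that bind foreign or misplaced double-stranded RNA and signal through the mitochondrial adaptor encoded by Mavs, while Dhx58 (LGP2) encodes a related helicase that lacks the signalling domains and tunes the others. Both routes use the kinase encoded by Tbk1, which phosphorylates the transcription factor IRF3 and so switches on type I interferon genes. Trex1, a DNA exonuclease, and Samhd1, a deoxynucleotide triphosphate hydrolase, limit the nucleic acids that the sensors can meet. Several of these genes are themselves induced by interferon.

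On GRCm38 (GENCODE M21), Ifih1 lies on chromosome 2 at 62595798 to 62646255, Mavs on chromosome 2 at 131234063 to 131248025 and Samhd1 on chromosome 2 at 157097533 to 157135265. Ddx58 lies on chromosome 4 at 40203773 to 40239828, Cgas on chromosome 9 at 78430526 to 78443237 and Trex1 on chromosome 9 at 109057933 to 109059734. Tbk1 lies on chromosome 10 at 121546455 to 121586787 and Dhx58 on chromosome 11 at 100694884 to 100704271. All their transcript lines in the table lie inside these bounds. All 1147 exonic bases of Trex1 are also annotated as exons of Atrip on the same strand, so reads of these genes can be split between them and the Trex1 values are uncertain. Cgas shares 201 of 4126 exonic bases with the pseudogene Gm8093 and Dhx58 shares 141 of 3272 with the antisense gene Dhx58os, both on the opposite strand. Without knowledge of strand use in the counting, reads from such pairs cannot be told apart. The Dhx58os transcript measured 0.285 FPKM or less in every library.

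Promoter windows from RefSeq (GRCm38.p6, 250 bases before to 50 after each start) were examined for 7 of the 9 genes. Those of Tmem173 and Dhx58 were not examined, so nothing is said of motifs in either gene. The core of the interferon-stimulated response element, GAAA followed by any 2 bases and GAAA, on either strand, was present in the windows of Ifih1 and Ddx58 and in 3.44% of 32851 promoter windows of the same length. It was not found in the windows of Cgas, Mavs, Tbk1, Trex1 or Samhd1. Both matches lie just past the start, at base 33 of Ifih1 (chr2:62646214-62646223) and at base 3 of Ddx58 (chr4:40239814-40239823, in the reverse orientation). The 30 bases that hold them, on the minus strand at chr2:62646206-62646235 and chr4:40239804-40239833, are shown because both genes rose (below), 5′ to 3′ along the gene with the match in capitals.
Ifih1: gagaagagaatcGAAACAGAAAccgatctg
Ddx58: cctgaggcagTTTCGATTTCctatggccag
A match is a description of the letters and does not show binding. The 100 bases just upstream of the start are shown for 5 genes, 3 that rose and 2 that did not pass, with the GC box, GGGCGG on either strand, in capitals. They are read along the gene, from chr2:62646256-62646355 (minus strand) for Ifih1, chr4:40239826-40239925 (minus) for Ddx58, chr2:131233963-131234062 (plus) for Mavs, chr9:78443238-78443337 (minus) for Cgas and chr10:121586795-121586894 (minus) for Tbk1.
Ifih1: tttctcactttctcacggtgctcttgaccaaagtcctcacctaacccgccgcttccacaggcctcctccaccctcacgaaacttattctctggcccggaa
Ddx58: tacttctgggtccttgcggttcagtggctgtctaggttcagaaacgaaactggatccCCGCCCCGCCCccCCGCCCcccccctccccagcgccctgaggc
Mavs: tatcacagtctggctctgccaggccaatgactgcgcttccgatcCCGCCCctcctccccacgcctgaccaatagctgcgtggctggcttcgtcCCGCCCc
Cgas: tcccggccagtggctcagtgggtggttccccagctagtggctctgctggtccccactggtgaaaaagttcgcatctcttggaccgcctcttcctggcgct
Tbk1: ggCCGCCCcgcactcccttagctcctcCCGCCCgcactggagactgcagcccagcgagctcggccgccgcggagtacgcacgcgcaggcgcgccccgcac
The box occurs in this stretch of Ddx58 (3 matches, of which 2 overlap by a base), Mavs and Tbk1 (2 each), is absent from that of Ifih1 and Cgas, and is present in 24.7% of all such stretches. Mavs, which rose, and Tbk1, which did not pass, thus both carry it.

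The comparison asks which sensing genes differed in abundance between irradiated and control thymus after a day. Transcripts of all 3 RNA helicases, both adaptors and Samhd1 were higher in irradiated thymus, by 2.45 to 6.74 times in the ratio of group means, while those of Cgas, Tbk1 and Trex1 did not pass the test. With limma on log2(FPKM + 0.1) and Benjamini-Hochberg adjustment over 14001 genes, 6 of the 9 genes rose and none fell at an adjusted p under 0.05. Among all genes tested 42.4% rose and 20.9% fell, 63.2% in all, so a rise by itself was common in these libraries. The median log2 fold change of the 9 genes was 1.49, beside 0.40 for all tested genes. By the rank of their log2 fold change among all genes tested, Dhx58 stood at percentile 85.0, Ifih1 at 80.9, Samhd1 at 79.9, Mavs at 73.1 and Ddx58 at 71.75. Tmem173 stood at 68.5, beside 68.2 for Trex1, 52.25 for Cgas and 40.5 for Tbk1, which did not pass. Tissue RNA was measured in bulk, so a change in the share of cells that carry a transcript and a change in RNA per cell cannot be told apart.

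**Figure D1:**
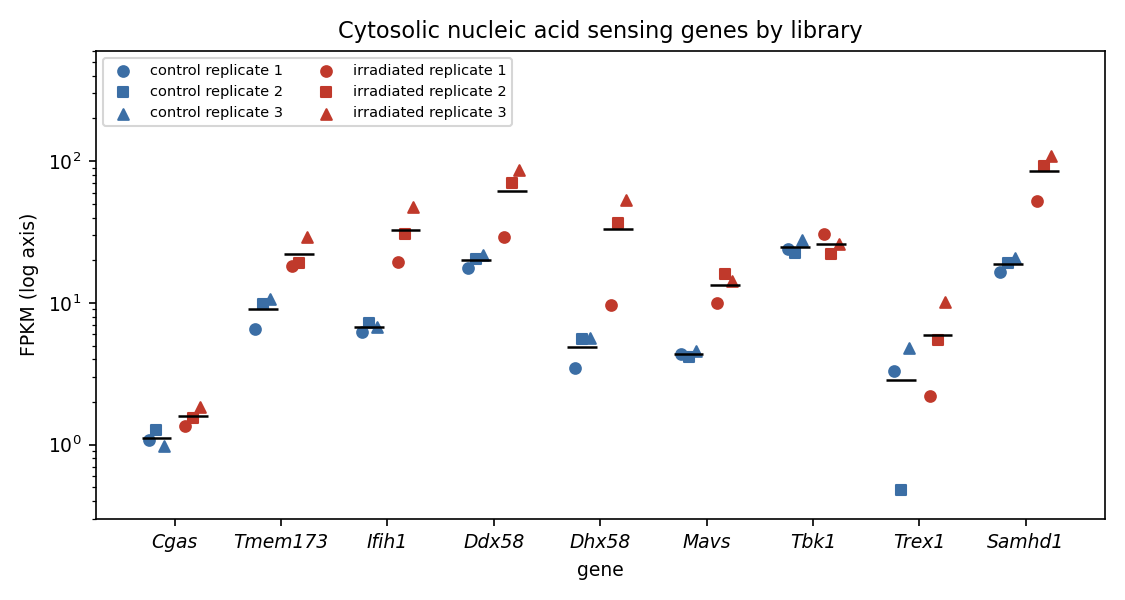
FPKM of the 9 sensing genes (log axis) in each of the 3 control (blue) and 3 irradiated (red) libraries, with group means as black lines. All irradiated libraries lie above all controls for Cgas, Tmem173, Ifih1, Ddx58, Dhx58, Mavs and Samhd1, while Tbk1 and Trex1 overlap.

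The RNA helicases moved together, and irradiated replicate 1 was the lowest of the irradiated libraries for each. Ifih1, which senses long double-stranded RNA, measured 6.19, 7.16 and 6.81 FPKM in control replicates 1, 2 and 3 and 19.5, 30.8 and 47.1 FPKM in irradiated replicates 1, 2 and 3. Control and irradiated values did not overlap, and the log2 fold change of 2.17 ± 0.30 (SE) had a limma adjusted p of 0.000862. Ddx58, which senses RNA ends that carry a triphosphate, measured 17.7, 20.4 and 21.8 FPKM in the controls and 29.0, 69.9 and 86.7 FPKM in the irradiated libraries. The lowest irradiated library stood above the highest control, but nearer to it than to the other irradiated libraries, and the log2 fold change was 1.49 ± 0.38 (limma adjusted p = 0.0124). Dhx58 measured 3.50, 5.57 and 5.67 FPKM in the controls against 9.66, 36.5 and 53.2 FPKM after irradiation. It had the largest log2 fold change of the 9 genes, 2.45 ± 0.59 (limma adjusted p = 0.00954), with irradiated libraries spread widely, at 33.1 ± 22.0 FPKM (SD, n = 3). Over the control mean, the log2 rise of Dhx58 was 0.99 in irradiated replicate 1 against 2.90 and 3.44 in replicates 2 and 3, and that of Ddx58 was 0.54 against 1.81 and 2.12. Without irradiated replicate 1 the log2 fold changes of Dhx58 and Ddx58 were 3.17 and 1.96.

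The adaptors rose as well. Mavs, through which both signalling helicases act, measured 4.37, 4.15 and 4.54 FPKM in the controls and 10.0, 16.0 and 14.3 FPKM in the irradiated libraries. The controls were tight, at 4.35 ± 0.197 FPKM (SD, n = 3), and the log2 fold change was 1.58 ± 0.20 (limma adjusted p = 0.000596). Tmem173, the STING gene downstream of cGAMP (chromosome 18, 35733679 to 35740554), measured 6.52, 9.82 and 10.6 FPKM in the controls and 18.1, 19.0 and 29.0 FPKM after irradiation. The lowest irradiated library was well clear of the highest control, with a log2 fold change of 1.28 ± 0.26 (limma adjusted p = 0.00411).

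Cgas, the DNA sensor that feeds STING, was the least abundant of the 9 in both groups. It measured 1.08, 1.26 and 0.985 FPKM in the controls and 1.36, 1.54 and 1.85 FPKM in the irradiated libraries. The groups did not overlap, as was true of 46.1% of all genes with irradiated higher and of 70.8% in either direction, but the log2 fold change of 0.48 did not pass (95% interval -0.13 to 1.08, limma adjusted p = 0.145). After quantile normalization the sign turned, to -0.95 with an adjusted p of 0.0322, and with median-ratio scaling it was 0.04, so no direction is given for Cgas.

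Tbk1, the kinase shared by both routes, was the most abundant of the 9 in the controls, at 23.9, 22.6 and 27.6 FPKM. In irradiated thymus it measured 30.4, 22.0 and 26 FPKM, and the groups overlapped. Its log2 fold change was 0.08 with a 95% interval of -0.31 to 0.46 (limma adjusted p = 0.700). Relative to the median of all genes it lay between -0.33 and 0.05 over the 4 scalings tried.

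Of the 2 enzymes that limit nucleic acids, Samhd1 rose and Trex1 did not pass. Samhd1, which lowers deoxynucleotide pools, measured 16.6, 19.2 and 20.9 FPKM in the controls and 52.7, 92.5 and 109 FPKM after irradiation. Every irradiated library was far above every control, and the log2 fold change was 2.10 ± 0.27 (limma adjusted p = 0.000654). Trex1 measured 3.33, 0.476 and 4.81 FPKM in the controls and 2.19, 5.51 and 10.1 FPKM in the irradiated libraries, so the groups overlapped and irradiated replicate 1 lay below 2 controls. Control replicate 2 was low, at about 12 fragments if depth is estimated from the smallest steps of FPKM and the longest Trex1 transcript is used. The log2 fold change of 1.25 ± 0.87 did not pass (limma adjusted p = 0.241) and was 0.31 without that library. Atrip, whose exons hold all of Trex1, was at 7.97 ± 0.692 FPKM in controls and 7.14 ± 1.43 FPKM after irradiation (SD, n = 3), and the sum of both genes at 10.8 ± 1.52 and 13.1 ± 3.72 FPKM.

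In the authors' deposited table, made with DESeq2, the same 6 genes have an adjusted p under 0.05 and a positive log2 fold change, beside 32.5% of all genes with a value. The deposited log2 fold changes run from 1.24 for Tmem173 to 2.66 for Dhx58, and those of Cgas (0.24), Tbk1 (-0.06) and Trex1 (0.82) do not pass there.

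The order of levels differed between the groups. In FPKM, which is per length, the control means ran Tbk1 (24.7), Ddx58 (19.97), Samhd1 (18.9), Tmem173 (8.995), Ifih1 (6.72), Dhx58 (4.91), Mavs (4.35), Trex1 (2.87) and Cgas (1.11). Library ranges overlapped between neighbours in this order except between Tbk1 and Ddx58, Samhd1 and Tmem173, and Ifih1 and Dhx58. In irradiated thymus the means ran Samhd1 (84.7), Ddx58 (61.8), Dhx58 (33.1), Ifih1 (32.5), Tbk1 (26.1), Tmem173 (22.0), Mavs (13.5), Trex1 (5.94) and Cgas (1.58). There neighbours were separate only between Tmem173 and Mavs and between Trex1 and Cgas. Tbk1 thus stood above every other gene of the set in all controls and at rank 5 by its mean after irradiation.

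The size of these rises depends on how libraries are scaled. Quantile normalization put the median log2 fold change of all genes at -0.07 and median-ratio scaling at -0.06, where the FPKM as deposited gave 0.40 and equal summed FPKM 0.30. The higher genes were 67.0% of those called with the FPKM as deposited, 44.3% with quantile normalization and 47.5% with median ratios. Relative to that median, Dhx58 stood 2.04 to 2.12 higher over the 4 scalings, Ifih1 1.76 to 1.96, Samhd1 1.69 to 2.02, Mavs 1.18 to 1.204, Ddx58 1.08 to 1.41 and Tmem173 0.87 to 1.105. These 6 genes passed under each of the scalings.

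**Figure D2:**
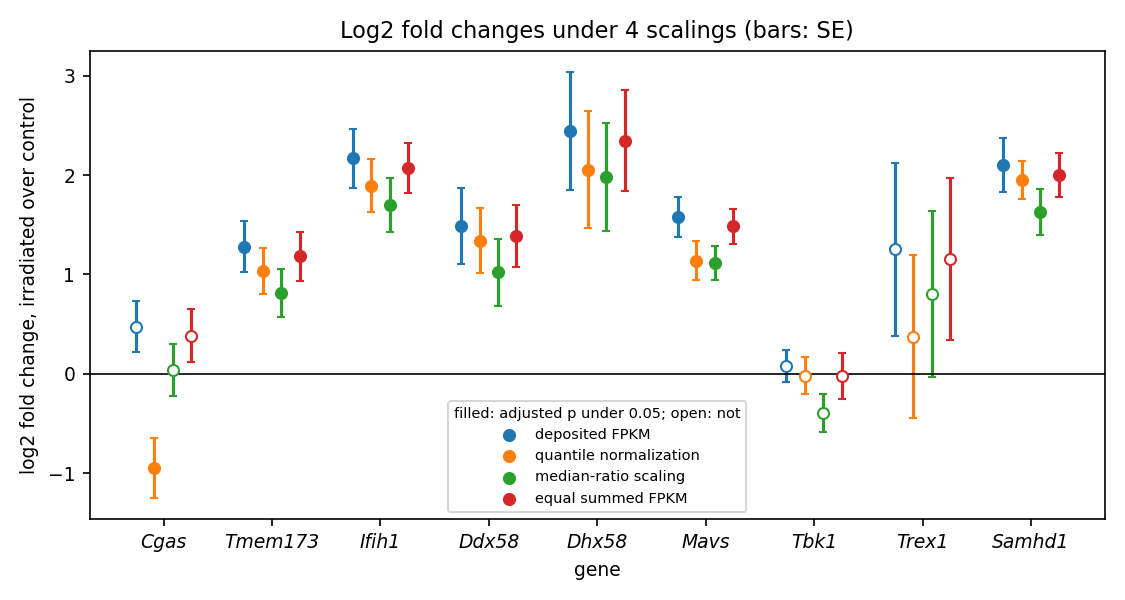
Log2 fold change (irradiated over control) of each gene under 4 scalings between libraries, with standard errors; filled points have a limma adjusted p under 0.05. Ifih1, Ddx58, Dhx58, Mavs, Tmem173 and Samhd1 stay filled and above 0 throughout, and Cgas turns from 0.48 to -0.95 after quantile normalization.

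Transcripts listed as markers of cell types also differed between the groups. Double-positive (CD4 and CD8) thymocytes make up most of the thymic cortex. The summed FPKM of their 10 markers was 1689 to 1961 in controls and 78.8 to 112 in irradiated libraries, and 9 of 10 fell. Of these Rag2 and Ptcra averaged 0.290 and 0.228 FPKM after irradiation. They were tested only because of their control levels (48.7 and 10.6 FPKM), so their calls carry little weight. All 13 macrophage markers rose, with sums of 185 to 220 and 1194 to 1427 FPKM, as did all 8 fibroblast markers (71.0 to 94.6 and 697 to 757 FPKM). Of 8 thymic epithelial markers 7 rose, with sums of 121 to 152 and 408 to 885 FPKM, and 7 of 8 endothelial markers rose, with sums of 32.9 to 42.0 and 51.8 to 143 FPKM. Of these endothelial markers Tek, Flt1 and Emcn averaged 0.405, 0.208 and 0.213 FPKM in controls. They were tested only because of their irradiated levels (5.68, 6.43 and 2.80 FPKM), so their calls carry little weight. Of 10 dendritic cell markers 4 rose and 1 fell, of 7 mature T cell markers 4 rose and 1 fell, of 6 granulocyte and monocyte markers 3 rose, and of 5 B cell markers 1 fell. The dendritic cell sum was 136 to 157 and 91.1 to 134 FPKM, but most of it in controls was Ccr9, which is also on the thymocyte list. Without Ccr9 it was 28.3 to 38.1 FPKM in controls and 87.1 to 132 FPKM after irradiation. The mature T cell sum was 234 to 315 and 178 to 251 FPKM, and without Cd3e, a gene that thymocytes also express, 81.5 to 116 and 135 to 199 FPKM. The sums were 50.4 to 122 and 52.9 to 506 FPKM for granulocytes and monocytes and 13.2 to 16.6 and 5.63 to 20.6 FPKM for B cells. These counts moved with the scaling. Of the 13 macrophage markers 12 rose after quantile normalization, after median-ratio scaling and with equal summed FPKM. After quantile normalization 3 dendritic markers rose and 3 fell, 4 B cell markers fell, 5 epithelial markers and 6 endothelial markers rose, and 2 granulocyte and monocyte markers rose. After median-ratio scaling 2 mature T cell markers rose and 2 fell, 5 epithelial markers rose, and all 10 double-positive thymocyte markers fell. With equal summed FPKM 6 epithelial markers rose. Both there and after quantile normalization 3 mature T cell markers rose and 1 fell. No tested marker of these lists was at 0 in any library. The part of these shifts in the rise of the sensing genes was not tested.

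The irradiated libraries differed among themselves. Summed macrophage markers stood at a log2 ratio of 2.52, 2.58 and 2.78 to the control mean in irradiated replicates 1, 2 and 3, and fibroblast markers at 3.02, 3.13 and 3.06. Summed interferon-induced genes stood at 0.92, 2.60 and 3.12, endothelial markers at 0.52, 1.98 and 1.98, and granulocyte and monocyte markers at -0.74, 2.52 and 1.40. Macrophage markers were not alike within the list, however: C1qa, C1qb and C1qc made up 691 to 818 FPKM of the sum, and 8 of the 13 markers were lowest in irradiated replicate 1. Among these Cd68 measured 35.6, 116 and 169 FPKM in irradiated replicates 1, 2 and 3, while Vcam1 measured 228, 93.0 and 139 FPKM. All 19 tested genes of the interferon list, all 8 endothelial markers and 8 of the 9 sensing genes were lowest in irradiated replicate 1. So were 60 of the 103 tested genes of all pathway lists, the interferon list among them. Irradiated replicate 1 also had the smallest summed FPKM, 249245 against 316531 and 305776 in replicates 2 and 3. The share over all genes was not counted, so a low replicate 1 cannot be called particular to these genes. Dhx58, at 0.99, 2.90 and 3.44, had a low replicate 1 like the interferon-induced sum, and so had Ddx58. Samhd1, at 1.48, 2.29 and 2.53, and Mavs, at 1.19, 1.86 and 1.70, differed less between libraries. With 3 irradiated libraries these likenesses are descriptions.

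**Figure D3:**
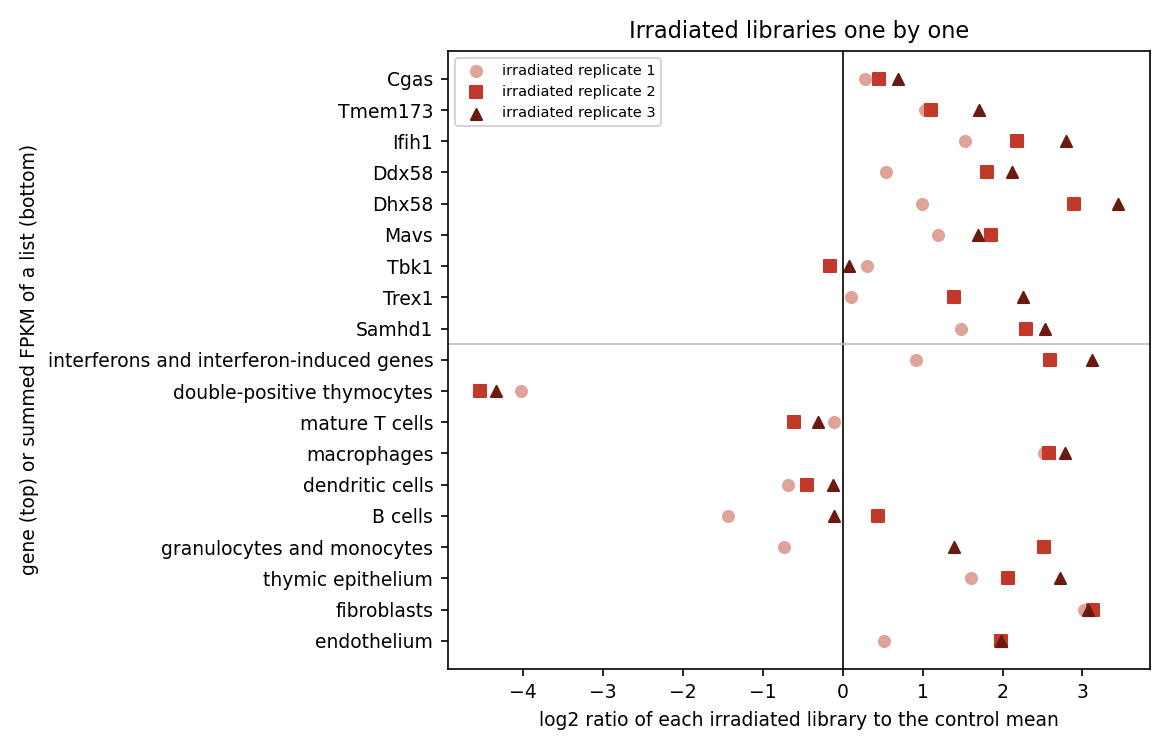
Log2 ratio of each irradiated library to the control mean, for the 9 sensing genes (top, from log2(FPKM + 0.1)) and for the summed FPKM of marker lists and interferon-induced genes (bottom). Macrophage and fibroblast sums are alike in the 3 libraries, though single macrophage markers are not, while Ddx58, Dhx58 and the interferon-induced sum are lowest in irradiated replicate 1.

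Other genes of the pathways were taken from 7 lists with 107 genes, of which 103 were tested. Of these 50 rose (48.5%) and 12 fell, with a median log2 fold change of 0.85, beside 42.4% that rose among all genes tested. After quantile normalization 40 rose and 18 fell, and after median-ratio scaling 41 rose and 29 fell. The share that rose was 84.2% in the interferon list, 62.5% among RNA sensors and 57.1% among clearance genes, and 21.4% to 40% in the other lists. No test of a list against other genes was made.

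Most listed interferon-induced genes rose, and the 3 interferon genes on the list were at or near 0. Ifnb1 is listed at 0 in every library, and Ifna4 and Ifnl2 averaged 0 in controls and 0.0226 and 0.0769 FPKM after irradiation, under the level needed for testing. Of the 19 tested genes of this list 16 rose and none fell, with a median log2 fold change of 2.14 and, over the 4 scalings, a lead of 1.73 to 1.83 on the median gene. Over the scalings 13 to 18 genes of the list rose, and over the fits without 1 library 11 to 19. The call for Mx2 held in 6 of 15 alternatives, those for Ifit1 and Rtp4 in 11 and that for Stat2 in 12. Oasl2 went from 10.2 ± 2.06 to 113 ± 54.1 FPKM (SD, n = 3) and Rsad2, an antiviral enzyme gene, from 1.46 ± 0.257 to 27.1 ± 24.7 FPKM. Ifit3 rose by a log2 fold change of 3.86. Cxcl10, a chemokine gene, measured 4.23, 4.43 and 6.05 FPKM in controls and 5.31, 37.6 and 150 FPKM in irradiated libraries, and did not pass (limma adjusted p = 0.0599). Isg15, an interferon-induced ubiquitin-like modifier, measured 10.2 FPKM in irradiated replicate 1, inside the control range of 6.14 to 11.2 FPKM, and 75.4 and 173 FPKM in replicates 2 and 3. Its call (limma adjusted p = 0.0453) was lost in 10 of 15 alternatives, at adjusted p up to 0.132, among them any fit without a control, without irradiated replicate 2 or without irradiated replicate 3. Bst2, an antiviral membrane protein gene, rose by 2.87, and Ifit2 was at 1.62 (limma adjusted p = 0.0711). Reads of the Ifit and Oas families may be divided among close copies, which makes these values uncertain.

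Of 16 other RNA sensors and cofactors, 10 rose and 3 fell, with a median log2 fold change of 0.97. Rnf135, a ubiquitin ligase that activates RIG-I, went from 1.23 ± 0.143 to 7.75 ± 0.887 FPKM (SD, n = 3), and the endosomal RNA receptor genes Tlr3 and Tlr7 rose by log2 fold changes of 2.32 and 2.61. Oas1a and Oas2, whose products make short oligoadenylates on binding double-stranded RNA, rose by 3.52 and 2.71. Oas3 rose by 2.69, with its call lost in 6 of 15 alternatives, among them any fit without a control or without irradiated replicate 2 or 3. Eif2ak2, which encodes the RNA-activated kinase PKR, rose by 1.1, a call lost after median-ratio scaling (limma adjusted p = 0.0583) and without control replicate 1. Zc3hav1, an antiviral RNA-binding protein gene, was at -0.01 (limma adjusted p = 0.950). The 3 that fell were the helicase genes Dhx15 (-1.23), Dhx9 (-1.16) and Dhx36 (-0.83), which also act in RNA processing. Dhx9 was abundant, at 115 ± 10.8 FPKM in controls and 51.5 ± 8.84 FPKM after irradiation. Over the scalings 7 to 10 genes of the list rose and 3 to 4 fell.

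Of 14 other DNA sensors and cGAS cofactors, 3 rose and 3 fell, with a median log2 fold change of 0.03. Ifi204, a DNA-binding protein gene of the interferon-inducible p200 family, went from 3.48 ± 0.616 to 53.8 ± 34.2 FPKM (SD, n = 3). This family has close copies, so the value is uncertain. Hmgb1, an abundant chromatin protein gene, went from 69.0 ± 13.3 to 14.8 ± 3.38 FPKM. Zbp1, a sensor of left-handed nucleic acids, measured 11.2 FPKM in irradiated replicate 1, within the control range of 7.97 to 13.8 FPKM, and 70.0 and 117 FPKM in replicates 2 and 3, and did not pass (limma adjusted p = 0.0622). Aim2, the DNA sensor of an inflammasome, was at 0.34 (limma adjusted p = 0.106). Zcchc3, a cofactor of cGAS, rose by 1.33 but was at -0.01 after quantile normalization, and Ifi203 by 0.85, a call lost after median-ratio scaling (limma adjusted p = 0.0856). G3bp1, a stress granule gene, was at -0.34 (limma adjusted p = 0.0701). Counts in this list moved with the settings, to 6 higher without irradiated replicate 1, 5 lower after quantile normalization and 6 lower after median-ratio scaling.

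Around the kinase, 5 of 14 genes rose and 1 fell. Irf7, the interferon-inducible partner of IRF3, measured 6.46, 7.41 and 9.99 FPKM in controls and 19.4, 110 and 125 FPKM in irradiated libraries, a log2 fold change of 3.02 (limma adjusted p = 0.00651). Irf3 was at 38.5 ± 5.32 FPKM in controls and 29.7 ± 3.08 FPKM after irradiation (SD, n = 3) and did not pass (-0.37, limma adjusted p = 0.0728). The autophagy receptor gene Optn rose by 3.22, Tbkbp1, which encodes a TBK1-binding protein, by 2.65 and Irf5 by 2.32. Ikbke, the closest relative of Tbk1, was at 0.03 (limma adjusted p = 0.933). Tax1bp1, a partner of A20, was at -0.37 (limma adjusted p = 0.0727). Traf6 fell by 0.48 on the log2 scale, a call lost without control replicate 3 (limma adjusted p = 0.0522). After median-ratio scaling 4 of these genes rose and 6 fell, after quantile normalization 4 and 2, and without irradiated replicate 1 3 fell.

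Of 16 genes listed as negative regulators 4 rose and 3 fell. Whether Tkt and Tmem203 belong on that list is uncertain, and neither passed. Usp18, which removes ISG15 and blocks interferon receptor signalling, went from 12.7 ± 2.54 to 70.4 ± 39.9 FPKM (SD, n = 3), and Nlrc5 and Ptpn1 rose by log2 fold changes of 1.37 and 0.97. Nlrx1, a mitochondrial protein gene, rose by 1.02, but not after quantile normalization (0.25, limma adjusted p = 0.458) or median-ratio scaling (0.57, limma adjusted p = 0.0579). Trim27 (-0.89), Nlrc3 (-1.11) and Tnfaip3 (-0.54) fell. Pcbp2, whose product directs MAVS to degradation, was at 0.05 (limma adjusted p = 0.794). The count of 3 lower was 1 without any of the controls and 7 after median-ratio scaling. The calls for Nlrc3 and Tnfaip3 were the ones lost without any control, and that for Nlrc3 also without irradiated replicate 2 or 3.

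Of 14 tested genes that clear nucleic acids or cGAMP 8 rose and 2 fell, with a median log2 fold change of 1.14. Enpp1, which encodes the enzyme that degrades cGAMP outside cells, measured 0.581, 0.576 and 0.626 FPKM in controls and 3.99, 3.95 and 5.00 FPKM in irradiated libraries, a tight rise with a log2 fold change of 2.66 (limma adjusted p = 0.000143). Enpp3, of the same family, averaged 0.125 FPKM in controls and was tested only because of its irradiated level (1.30 FPKM), and its rise of 2.58 was lost after quantile normalization (0.93, limma adjusted p = 0.0840). Dnase2a, the lysosomal DNase gene, rose by 2.005, and the exonuclease genes Pld3 and Pld4 by 1.32 and 2.01. Genes of 2 subunits of RNase H2, which removes ribonucleotides from DNA, fell: Rnaseh2c went from 24.1 ± 4.96 to 8.32 ± 1.79 FPKM (SD, n = 3) and Rnaseh2b by a log2 fold change of -1.08, while the catalytic subunit gene Rnaseh2a was at 0.32 (limma adjusted p = 0.0983). Adar, which edits double-stranded RNA and so hides it from MDA5, was at 0.95 (limma adjusted p = 0.0585). Over the scalings 6 to 9 genes of the list rose and 2 to 3 fell. Of 10 genes of cGAMP and STING transport 4 rose and none fell, among them Slc46a2, a cGAMP importer gene (5.80 ± 1.93 to 28.7 ± 4.15 FPKM), and Abcc1, an exporter gene (1.52), with Yif1a and Lrrc8a at 1.52 and 0.97, while the importer gene Slc19a1 was at -0.16 (limma adjusted p = 0.503). Tmed2 was at -0.26 (limma adjusted p = 0.616). In this list 2 genes fell after quantile normalization, 3 after median-ratio scaling and 1 without irradiated replicate 3.

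**Figure D4:**
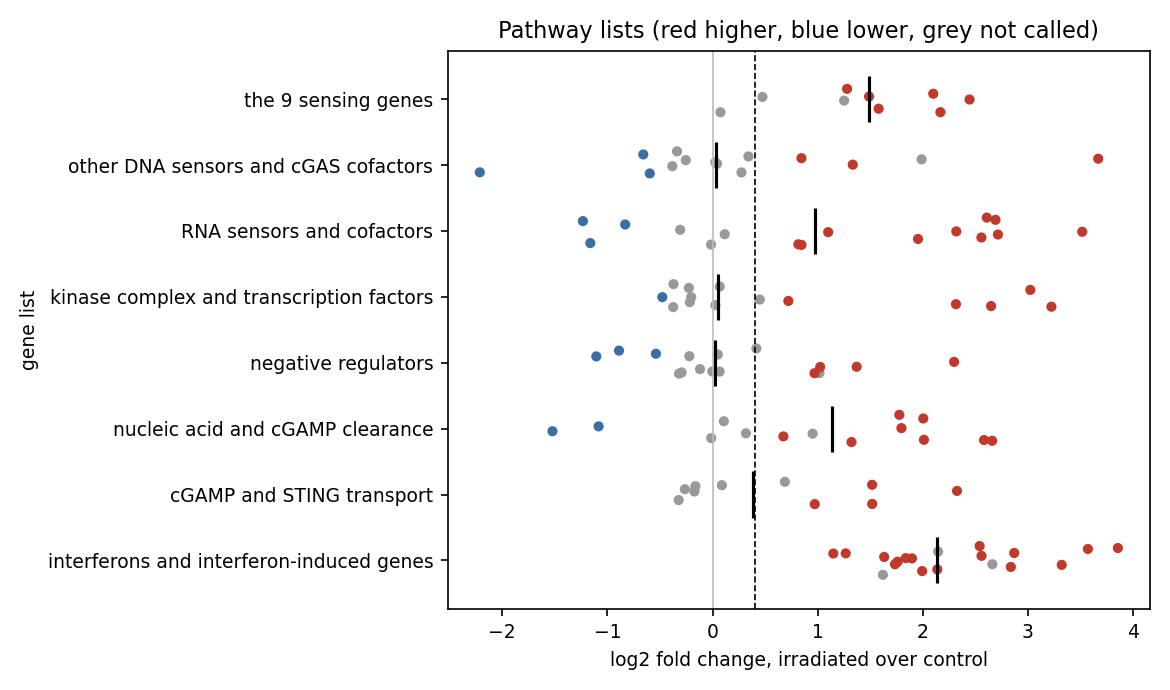
Log2 fold change (irradiated over control) of each tested gene in the 9 sensing genes and 7 other lists; red rose and blue fell at a limma adjusted p under 0.05, grey did not pass, black bars are list medians and the dashed line is the median of all tested genes (0.40). Interferon-induced genes lie furthest right, with a median of 2.14, and the lists of DNA sensors, kinase partners and negative regulators have medians near 0.

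The lncRNA table holds 30 noncoding transcripts of 7 of these genes, with none for Cgas and Trex1. By GENCODE type 13 are retained introns and 16 processed transcripts, and 1 is an assembled transcript at Tbk1. In 15 of the 30 every irradiated library exceeded every control, and in 2 every irradiated library was lower. Over all 53001 transcripts of the table with no filter on level, these shares were 11.5% and 18.0%. The transcripts lie in the same genes as the coding ones and are not independent measurements.

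The 15 were all 3 transcripts of Ifih1, 4 of 5 of Samhd1, 2 of 3 of Tmem173, 4 of 8 of Ddx58 and 2 of 5 of Dhx58, with none for Mavs or Tbk1. Samhd1-209, with a retained intron (chromosome 2, 157121847 to 157130057), measured 0.936, 1.79 and 1.17 FPKM in controls and 5.80, 5.90 and 6.23 FPKM in irradiated libraries, with little spread after irradiation. Ifih1-203, with a retained intron (chromosome 2, 62633488 to 62646158), went from 1.37 ± 0.316 to 9.13 ± 5.59 FPKM (SD, n = 3). Tmem173-206 went from 4.09 ± 1.66 to 12.1 ± 4.85 FPKM. Both transcripts in which the irradiated libraries were all lower belong to Tbk1: Tbk1-203, at 2.46 ± 0.528 and 1.30 ± 0.394 FPKM, and the assembled transcript, at 1.70 ± 0.0395 and 1.36 ± 0.376 FPKM.

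Ddx58 had the most, 8 noncoding transcripts, and they did not move alike. Ddx58-202 (chromosome 4, 40223876 to 40239722) is listed at 0 in all controls and measured 1.01, 0.607 and 4.76 FPKM in the irradiated libraries. Ddx58-207, which covers nearly the same stretch (chromosome 4, 40223431 to 40239755), measured 5.25, 6.98 and 6.04 FPKM in controls and 1.40, 17.3 and 2.83 FPKM in irradiated replicates 1, 2 and 3, with irradiated libraries on both sides of the controls. The sources used here do not say how reads were divided between these transcripts. Of the 30 transcripts, 3 have in the authors' deposited table an adjusted p under 0.05, Ddx58-202 (3.75e-06), Ifih1-203 (0.00607) and Dhx58-202 (0.0191), all higher, beside 4.87% of transcripts with a value that are higher there. Dhx58-202 is listed at 0 in the controls and in irradiated replicate 1 and measured 0.707 and 0.778 FPKM in replicates 2 and 3.

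Set against the coding value of the same gene, noncoding transcripts made up 45.3% to 45.8% of summed Ddx58 FPKM in controls and 31.8% to 42.8% after irradiation, and 19.97% to 28.1% and 14.5% to 17.3% of that of Dhx58. For Tmem173 the share was 38.8% to 42.3% and 38.4% to 41.7%. These shares join 2 tables and assume that both were scaled alike, which is not given in the sources used here.

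**Figure D5:**
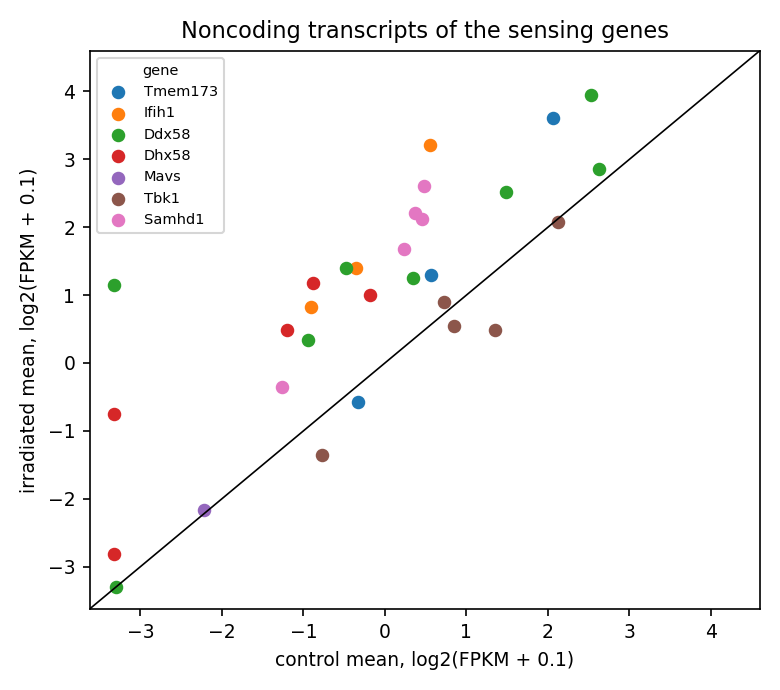
Group means of the 30 noncoding transcripts of the sensing genes, as log2(FPKM + 0.1), irradiated against control, coloured by gene; the line marks equal values. Transcripts of Ifih1 and Samhd1 lie above the line, those of Tbk1 on or below it except Tbk1-205, and those at the left edge are at or near 0 in the controls.

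Depth, estimated from the smallest steps of FPKM, was about 21900000 to 23200000 fragments in controls and 24400000 to 25600000 in irradiated libraries. The estimate is rough, since 43.3% to 54.2% of low values lay within 0.05 of a whole fragment under it. Genes at 1 FPKM or more numbered 11274 to 11453 in controls and 12853 to 13711 after irradiation, and summed FPKM ran from 249245 to 316531. Across genes, which are not independent replicates, Pearson's r reached 0.979 to 0.985 for pairs of controls, 0.824 to 0.931 for pairs of irradiated libraries and 0.619 to 0.815 for mixed pairs.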

How the data were processed

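The deposited mRNA and lncRNA tables give FPKM per library, computed by the authors, with group means, a log2 fold change, p-values and adjusted p-values of the authors, named so per the file headers. DESeq2 1.10.1 is named for the comparison per the submitters' processing notes. The sources used here do not give the aligner, quantifier, strand use or build. The coordinates match GENCODE M21 (GRCm38).

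Each mRNA gene has 1 set of values, so 1 line per gene was kept. The lncRNA table was used by transcript, without a test, after 62 lines with no FPKM were dropped. The mRNA test was limma 3.58.1 (R 4.3.3) on log2(FPKM + 0.1) for genes averaging at least 0.5 FPKM, with group only, an abundance trend and Benjamini-Hochberg adjustment, as the design provided for FPKM. All 9 genes passed that filter. Fold changes on this scale understate changes of low genes. The procedure was tested on simulated data in which few genes changed, as many raised as lowered. That setting differs from these data and does not bear on the scaling between libraries.

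The members and gene lists were chosen with earlier results of these data known. All members are named. Of each pathway list any gene that passed could be named, by default the 4 with the largest change, and of those that did not pass the ones with the highest control level. Aim2, Zbp1, Ikbke, Cxcl10, Rnaseh2a and Slc19a1 did not pass and are named outside that rule for their role, with their values known. Some genes the rule would name are not reported here. Alternatives covered pseudocount, filter, scaling, trend, the replicate block and leaving out each library. Depth was estimated from FPKM times length of genes with 1 transcript. Motifs and stretches shown were read from the RefSeq promoter table, the GC box being chosen after the data were seen.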

Additional observations from a re-analysis of the deposited data

How the results depend on the processing

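The 6 calls among the sensing genes held in every one of the 15 alternatives tried, and none of the 3 other genes passed as higher in any. Among the 9 genes 1 was lower after quantile normalization, Cgas at a log2 fold change of -0.95. The sign of Tbk1 turned, without passing, to -0.0186 after quantile normalization, -0.39 after median-ratio scaling and -0.0225 with equal summed FPKM, and ran from -0.0395 (without irradiated replicate 1) to 0.193 (without irradiated replicate 2) over the fits without 1 library. Of all mRNA genes 3501 were higher and 4403 lower after quantile normalization, against 5933 and 2920 in the deposited FPKM, and 4444 were higher and 4917 lower after median-ratio scaling. Of the pathway genes 29 were lower after median-ratio scaling, against 12. Over the fits without 1 library, the log2 fold change ran from 1.95 to 3.17 for Dhx58, 1.17 to 1.96 for Ddx58, 1.85 to 2.49 for Ifih1, 1.89 to 2.41 for Samhd1, 1.44 to 1.78 for Mavs, 1.07 to 1.42 for Tmem173 and 0.31 to 1.85 for Trex1. The cause of these shifts was not tested. Libraries of both groups share numbers 1 to 3, and same-numbered deviations correlated at 0.06, -0.04 and 0.05. With 3 libraries per group such values cannot decide whether the numbers pair the libraries. With the replicate block 6 sensing genes were higher and none lower, 55 pathway genes were higher and 12 lower, and 5693 mRNA genes were higher and 2662 lower. Depth limits Trex1 and Cgas most, at about 12 to 268 and 88 to 183 estimated fragments per library.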

Other observations

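The genes whose profiles over the 6 libraries lay closest to each sensing gene were found by the Euclidean distance between log2(FPKM + 0.1) values after centring each gene on its mean. Closest to Dhx58 were the interferon-induced genes Gbp2 (distance 0.23) and Xaf1 (0.39), with log2 fold changes of 2.37 and 2.54. Closest to Samhd1 were Cndp2 (0.16), which encodes a dipeptidase, and the lysosomal membrane protein gene Lamp1 (0.17), which averaged 56.7 FPKM in controls and 241 FPKM after irradiation. Tmem173 lay closest to Chpf2 (0.24), Mavs to Prr5 (0.12), Ifih1 to Htra4 (0.18), Cgas to Spryd4 (0.19) and Tbk1 to Uckl1 (0.13). Trex1 had no close match, its nearest gene being Lgals2 at 1.44. These distances rest on 6 libraries in 2 separate groups and say nothing of shared control.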
